A study of Mus musculus with 9 samples.

Results

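The 31 genes described here make, import and charge amino acids in the cytosol and mitochondria, and they were followed in cultured mouse hepatocytes exposed to acetaminophen or to its isomer. The members are a list of names, with no threshold on measured values. They are 14 genes of amino acid synthesis, one-carbon metabolism, amino acid transport and translation control, and 17 cytosolic aminoacyl-tRNA synthetases. A probe set with a single gene symbol was found for 28 of the 31, of 12393 genes measured in all. Aldh1l2, Dars and Mars were not analysed here. A gene was counted as expressed when its mean over the arrays reached 5.67 on the log2 scale, the median of all probe-set means. That held for 6700 genes and for 27 of the members, 12 of them outside the synthetases and 15 synthetases. Slc7a1, a carrier of cationic amino acids, was the member below that level, at 4.53 to 5.65 on all arrays.

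TAMH cells are a line of mouse hepatocytes derived from animals transgenic for TGF-alpha, and the labels give the strain as C57BL/6 and the tissue as liver. They were grown to confluence, 2 dishes per treatment, and kept in control medium, 2 mM acetaminophen (APAP) or 2 mM AMAP for 2, 6 or 24 h. AMAP is N-acetyl-meta-aminophenol, which carries the hydroxyl group of acetaminophen at the meta instead of the para position of the ring, and it has long been used as the less hepatotoxic comparator in mice. Total RNA of each of the 9 groups was hybridised to 1 Affymetrix mouse 430A_2 array, so every same-time difference below compares 2 arrays, has no replicate check and carries no p-value. All groups come from 1 cell line, and fewer cells of a kind cannot be told apart from less RNA per cell.

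When amino acids run short or the eIF2-alpha kinases are active, translation of the transcription factor ATF4 increases, and ATF4 binds composite C/EBP-ATF elements in genes such as those collected here. The products make asparagine and serine, supply one-carbon units in mitochondria, carry neutral amino acids across the plasma membrane, and load amino acids onto their tRNAs. In hepatocytes the same pathway meets glutathione synthesis, which draws on cysteine and glycine.

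Of 11 hepatocyte markers, 10 were measured and all 10 were expressed, with albumin (Alb) at 12.80 to 13.28 and the hepatocyte factor Hnf4a at 9.04 to 9.80. None of 7 stellate cell and fibroblast markers and none of 5 endothelial markers passed the expression level. Of the macrophage markers 1 of 6, Cd14, passed it, and of the cholangiocyte markers 3 of 4 (Krt7, Krt19 and Sox9) did. The median of that list was lowest in control at 2 h, at 6.41, and highest in APAP at 2 h, at 7.50, with AMAP at 2 h at 6.94. Between those control and APAP arrays Krt19 read 6.59 and 8.69 and Krt7 8.75 and 10.19, and the part of this in the 2 h differences was not tested. Both compounds' arrays of 24 h, and that of APAP at 6 h, stood apart from the others. Their lower quartile of all probe sets was 3.92 (APAP, 6 h), 3.82 (APAP, 24 h) and 3.84 (AMAP, 24 h), against 3.50 to 3.63 elsewhere, and the log2 ratio of the middle to the 3′ probe set of the dap spike-in control was -1.72, -1.58 and -1.95 in that order, against -0.60 to -0.44. No other spike-in control put all 3 of these arrays below the others by that ratio, and thr put all 3 above them. That ratio was -1.67, -1.28 and -1.16 for phe, against -1.31 to -0.77 elsewhere. For lys it was -1.29, -1.12 and -0.88, against -1.005 to -0.478. For thr it was higher, at -0.18, -0.08 and -0.11, against -0.48 to -0.31. The part of these 3 arrays in the same-time differences at 6 and 24 h was not tested. None of these 3 arrays was of 2 h.

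At 2 h, AMAP stood above control for most members and APAP did not. Of the 27 expressed members, 24 were higher and 3 lower in AMAP than in control, with a median log2 difference of 0.22 where all 6700 expressed genes had -0.01. For APAP against control 14 were higher and 13 lower, and the median was 0.01, or -0.01 after cyclic loess between arrays, beside -0.01 for all expressed genes. Set against each other at 2 h, APAP was lower than AMAP for 21 of 27 members, with a median of -0.18. All 12 expressed members outside the synthetases were lower with APAP, with a median of -0.49, as against 9 of the 15 synthetases, with a median of -0.07. No member was 2-fold apart from control with either compound at 2 h. That threshold, a log2 difference of 1 with the higher array at or above 5.66, was passed upward by 1.37% and downward by 0.443% of genes for AMAP, and upward by 0.931% and downward by 1.14% for APAP. Here and below, 2-fold shares of all genes are taken over the genes whose higher array of the pair reached 5.66. Those were 6779 for AMAP and 6768 for APAP here. They include genes with a mean below the expression level, whereas the members counted are the 27 expressed. Asns and Slc1a4 were more than 2-fold lower with APAP than with AMAP, 2 of 27 members, where 1.26% of all genes were lower and 0.517% higher by that rule.

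At 6 h the order of the compounds was the opposite, a difference between times that was not tested. In AMAP 23 of the 27 members were lower than in control, with a median of -0.36, beside -0.10 for all expressed genes. Centring each array on the median of the expressed genes left 22 lower, with a median of -0.28. For the 14 members with another expressed probe set, the AMAP median was -0.46 by the probe set used and -0.07 by the other. Slc1a5 was 2-fold lower and Hars 2-fold higher there, against 0.247% of all genes lower and 1.06% higher. In APAP 17 were lower and 10 higher than in control, with a median of -0.05, which was 0.05 after cyclic loess and 0.04 after centring. Slc38a2, Hars and Iars were 2-fold lower with APAP, 3 of 27, where 5.13% of all genes were lower and 1.69% higher. APAP stood above AMAP for 18 of 27 members, with a median of 0.26 beside 0.07 for all expressed genes. The members 2-fold apart were Mthfd2 and Slc1a5 upward and Slc38a2 and Hars downward, beside 3.99% of all genes upward and 7.89% downward.

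At 24 h most members were lower in APAP than in either other array. Against control 23 of 27 were lower, with a median of -0.52 where all expressed genes had 0.12, and 11 of the 12 members outside the synthetases were among them. Asns, Psat1, Psph, Slc1a4 and Hars were 2-fold lower, 5 of 27, and none was 2-fold higher, against 3.8% and 3.4% of all genes. Against AMAP 25 of 27 were lower, with a median of -0.54 beside 0.02, including all 12 outside the synthetases with a median of -0.73. The 2-fold lower members were Asns, Psph, Slc1a4 and Eprs, 4 of 27, beside 1.47% of all genes lower and 1.82% higher. AMAP lay on both sides of control at 24 h. The median was 0.04, or -0.01 after centring, with 16 members higher and 11 lower, or 13 and 14 after centring. The only member 2-fold apart was Hars, lower, where 2.62% of all genes were lower and 0.73% higher. The 3 comparisons at a time share arrays, so they are not independent of each other.

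**Figure D1:**
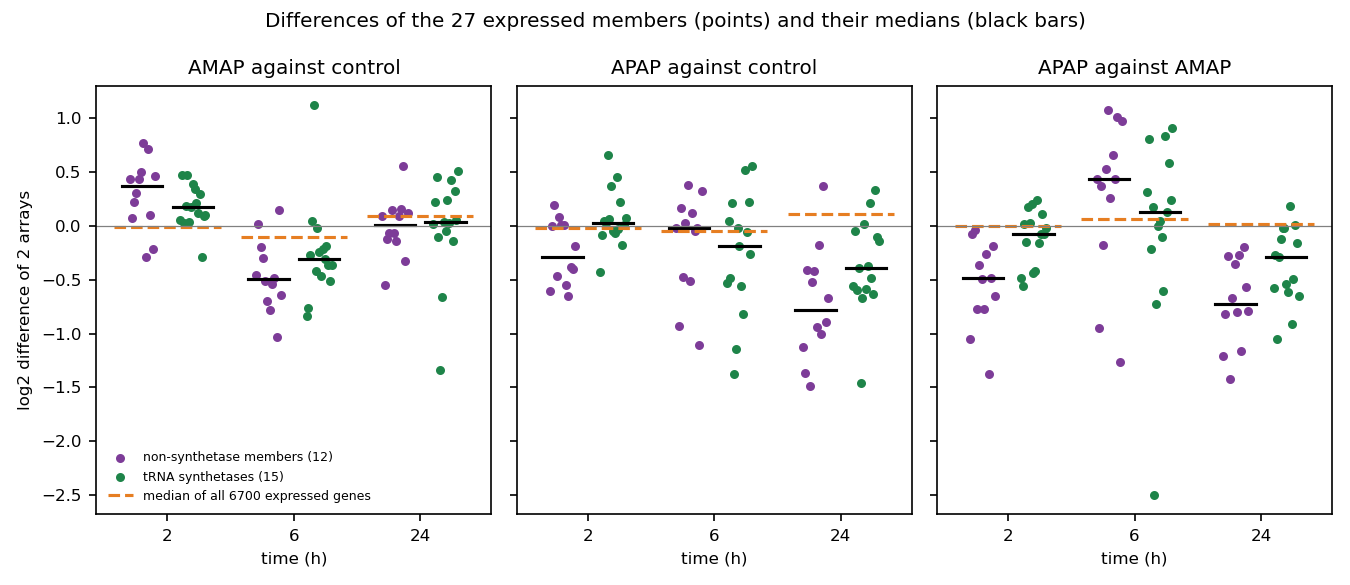
Log2 difference of 2 arrays (vertical axis) for each of the 27 expressed members at 2, 6 and 24 h, in 3 panels for AMAP against control, APAP against control and APAP against AMAP. Purple points are the 12 members outside the synthetases, green points the 15 synthetases, black bars their medians and orange dashes the median of all 6700 expressed genes. In the APAP against AMAP panel the purple points all lie below 0 at 2 and 24 h, and 9 of 12 lie above 0 at 6 h.

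Asns, which makes asparagine from aspartate with glutamine as nitrogen donor, is the textbook target of the amino acid response. Its log2 levels at 2, 6 and 24 h were 9.62, 9.97 and 10.46 in control, 9.02, 9.95 and 9.34 in APAP, and 10.06, 9.52 and 10.54 in AMAP. APAP at 2 h was the lowest of the 9 arrays and AMAP at 24 h the highest, and the control value was higher at each later time. The gene was therefore 1.52-fold lower than control with APAP and 1.36-fold higher with AMAP at 2 h, a 2.06-fold distance between the compounds. At 24 h APAP was 2.17-fold below control and 2.31-fold below AMAP. A second probe set of Asns also put APAP below control at 24 h, by -1.84, but read AMAP at -1.34 where the first read 0.09. For APAP against control at 6 h it gave -1.33 where the first gave -0.02. For AMAP against control at 6 h it gave 0.09 where the first gave -0.45. The order of the compounds at 6 h therefore depended on the probe set, with APAP at -1.42 from AMAP by the second and 0.43 by the first.

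The promoter of Asns and of several other members holds the C/EBP-ATF element, printed here because ATF4 is known to act on such genes through it. The search was for TGATGNAA on either strand, from 250 bases before to 50 after each annotated start in the RefSeq promoter table of GRCm38.p6. Promoters of 19 of the 31 members were analysed. Not matched were Aldh1l2, Slc7a5, Slc1a5, Eif4ebp1, Cars, Hars, Lars, Nars, Rars, Vars and Wars. In the windows of 30 bases, printed along the gene's strand with positions counted from the start and no 0, capitals mark the motif and, in Asns, also the GTTACA that starts 12 bases after it. The pair matches the layout of the nutrient-sensing response elements known from this promoter. GTTACA by itself, on either strand, was in 8.25% of all promoters.
Asns, chr6:7693205-7693234, minus strand, motif at -23 to -16: caTGATGAAActtcccgcacgcGTTACAga
Slc1a4, chr11:20332699-20332728, minus strand, motif at -4 to 4: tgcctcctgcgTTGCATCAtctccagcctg
Iars, chr13:49682126-49682155, plus strand, motif at 8 to 15: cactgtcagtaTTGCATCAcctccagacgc
Yars, chr4:129189895-129189924, plus strand, motif at 4 to 11: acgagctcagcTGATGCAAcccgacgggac

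Gars and Tars also held the motif. It was present in 6 of these 19 members, or 31.6%, against 3.97% of all 32851 promoters and 2.62% of 5534 expressed genes with a promoter. The stricter form TTGCATCA or its complement, which lies inside the first motif, was in 4 of the 19, or 21.1%, and in 0.895% of all promoters. By role, 4 of 9 synthetases and 2 of 10 other members held the wider motif. A match is a description of letters in this window, and its absence says nothing about the factor. In APAP against control at 24 h the 6 expressed members with it had a median of -0.65 and were all lower, while the 10 without it had -0.50 and 9 were lower. In AMAP against control the medians with and without it were 0.24 and 0.15 at 2 h, -0.39 and -0.28 at 6 h, and -0.01 and -0.01 at 24 h. For APAP against control they were 0.05 and 0.01 at 2 h and -0.03 and 0.00 at 6 h. For APAP against AMAP they were -0.11 and -0.17 at 2 h, 0.304 and 0.185 at 6 h, and -0.57 and -0.62 at 24 h.

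Serine is made from a glycolytic intermediate by Phgdh, Psat1 and Psph in turn. Psat1, the transaminase, read 10.41, 10.46 and 10.96 in control at 2, 6 and 24 h, 10.41, 9.53 and 9.59 in APAP, and 10.48, 10.48 and 10.41 in AMAP. At 2 h the 3 arrays lay together, and APAP was lower than both others at 6 and 24 h, by 1.90-fold and 2.58-fold against control. AMAP was 1.46-fold below control at 24 h, where control was at its highest. The second probe set of Psat1 gave -2.26 for APAP and -1.26 for AMAP against control at 24 h. At 6 h it put APAP at -0.21 and AMAP at 0.82 from control.

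Psph, the phosphatase that releases serine, had 8.70, 8.83 and 9.54 in control, 8.24, 8.36 and 8.05 in APAP, and 9.01, 8.53 and 9.47 in AMAP. Its APAP values were the lowest of their time at all 3 times, and none of them reached the lowest control or AMAP value. At 24 h Psph was 2.81-fold below control and 2.68-fold below AMAP, its log2 difference of -1.49 against control being the largest among members outside the synthetases. Phgdh, the first enzyme of the path, had a range of 0.42 on the 9 arrays by its first probe set, with differences from control between -0.40 and 0.22, the lowest in APAP at 24 h. Its 3 further probe sets gave 0.22, -0.89 and -0.50 for APAP against control at 24 h, so the range depends on the probes.

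Shmt2 and Mthfd2 pass one-carbon units from serine to folate in mitochondria. Mthfd2 was at 8.33, 8.57 and 9.07 in control, 8.35, 8.96 and 8.65 in APAP, and 8.84, 7.88 and 9.00 in AMAP. AMAP at 6 h was the lowest of the 9 arrays, and APAP at 6 h was above its control. The 2 compounds were 2.11-fold apart at that time, APAP being 1.30-fold above control and AMAP 1.62-fold below it. The second probe set put them 0.71 apart on the log2 scale at 6 h, in the same direction but under 2-fold. Shmt2 differed from control by 0.44 and -0.51 with AMAP at 2 and 6 h and by -0.52 with APAP at 24 h.

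**Figure D2:**
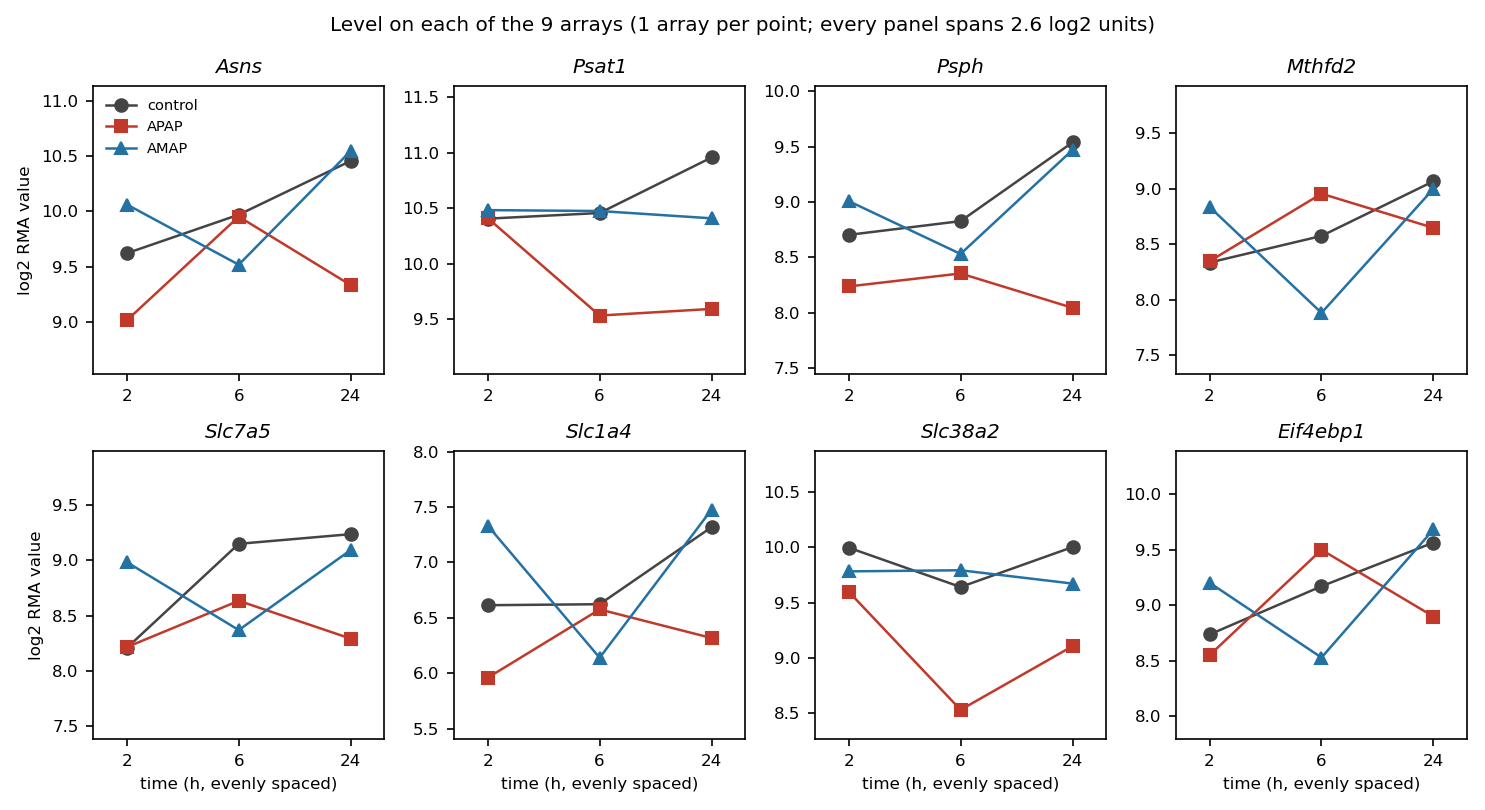
Log2 RMA level (vertical axis, every panel spans 2.6 log2 units) of 8 members on each of the 9 arrays against time in h, with control in grey circles, APAP in red squares and AMAP in blue triangles. Each point is 1 array. By the probe set drawn, Asns, Slc7a5, Slc1a4, Mthfd2 and Eif4ebp1 show AMAP highest at 2 h and lowest at 6 h. For Asns the second probe set, not drawn, had AMAP highest at 6 h. For Psph the APAP point is the lowest at each time and for Slc38a2 likewise.

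Among the carriers, Slc7a5 (LAT1) exchanges large neutral amino acids as a heterodimer with Slc3a2. Slc7a5 read 8.21, 9.15 and 9.23 in control, 8.22, 8.63 and 8.29 in APAP, and 8.98, 8.37 and 9.09 in AMAP. At 2 h APAP was 0.01 from control and AMAP was above both, whereas at 6 h AMAP was the lowest and at 24 h APAP was. AMAP was 1.71-fold above control at 2 h and 1.72-fold below it at 6 h, and APAP was 1.92-fold below control at 24 h. Its partner Slc3a2, at 10.24 to 11.05 over the arrays, was lower than control with both compounds at 2 h, by -0.55 in APAP and -0.28 in AMAP. In AMAP at 6 h it was at -0.54.

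Slc1a4 (ASCT1) carries alanine, serine and cysteine by sodium-coupled exchange. It read 6.61, 6.62 and 7.32 in control, 5.96, 6.58 and 6.32 in APAP, and 7.33, 6.14 and 7.48 in AMAP. APAP at 2 h was the lowest array and AMAP at 24 h the highest, and AMAP at 2 h already matched the control level of 24 h. At 2 h Slc1a4 was 1.57-fold below control with APAP and 1.65-fold above it with AMAP, which set the compounds 2.59-fold apart. At 24 h APAP was 2.00-fold below control and 2.23-fold below AMAP. Its 2 further probe sets gave -1.24 and -1.08 for APAP against control at 2 h, beyond the -0.65 of the first. They gave 0.24 and 0.14 for AMAP at 2 h, where the first gave 0.72. At 6 h they put APAP at -0.79 and -0.45 from control, where the first gave -0.05. At 24 h they gave -0.61 and -0.66 against control and -0.33 and -0.23 against AMAP, and with the probe sets averaged neither 24 h difference was 2-fold.

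Slc1a5 (ASCT2), a glutamine carrier, was at 8.39, 8.86 and 8.68 in control, 8.01, 8.84 and 9.05 in APAP, and 8.49, 7.83 and 9.24 in AMAP. AMAP at 6 h was the lowest of the 9 arrays, 2.04-fold below control and 2.02-fold below APAP. After cyclic loess its log2 difference from control was -0.96 and after centring -0.95, just short of 2-fold. It was also the one member outside the synthetases that was higher than control with APAP at 24 h, by 0.37.

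Slc38a2 (SNAT2), the sodium-coupled carrier of small neutral amino acids that rises when cells are starved of them, had 9.99, 9.64 and 10.00 in control, 9.60, 8.53 and 9.11 in APAP, and 9.78, 9.79 and 9.67 in AMAP. All 6 values of control and AMAP lay above all 3 of APAP. APAP was 1.32-fold, 2.16-fold and 1.86-fold below control at 2, 6 and 24 h, and AMAP was never more than 1.26-fold from it.

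Eif4ebp1 encodes the repressor of cap-dependent translation that mTORC1 inactivates, and ATF4 is known to raise its transcription. It was at 8.74, 9.17 and 9.56 in control, 8.55, 9.50 and 8.90 in APAP, and 9.20, 8.53 and 9.68 in AMAP. Its order of the arrays was that of Mthfd2 at 6 h and of Asns at 2 and 24 h. The compounds were 1.57-fold apart at 2 h and 1.72-fold at 24 h, with APAP lower, and 1.96-fold at 6 h, with APAP higher. A further expressed probe set put APAP at -0.33, 0.47 and -0.68 from AMAP at 2, 6 and 24 h, where the first gave -0.65, 0.97 and -0.785. For AMAP against control at 6 h it gave -0.11 where the first gave -0.64.

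Apart from Hars, the synthetases ranged over the 9 arrays by 0.37 (Kars) to 1.17 (Yars), and the other expressed members by 0.42 (Phgdh) to 1.53 (Asns). In AMAP against control, 14 of 15 were higher at 2 h, with a median of 0.17, and 13 of 15 lower at 6 h, with a median of -0.31. In APAP against control, 12 of 15 were lower at 24 h, with a median of -0.39. Aars, which charges alanine, read 9.02, 9.43 and 9.37 in control, 8.59, 8.90 and 8.81 in APAP, and 9.08, 8.59 and 9.38 in AMAP. It was below control with APAP at every time, by 1.34-fold to 1.47-fold, and with AMAP at 6 h only, by 1.79-fold. A second probe set of Aars also put APAP below control at 2 h, by -0.32. It did not do so later, with 9.08 against 8.99 in control at 6 h and 9.01 against 8.90 at 24 h.

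Cars, the cysteine enzyme, was at 8.42, 8.96 and 9.00 in control, 8.33, 9.01 and 8.95 in APAP, and 8.89, 8.20 and 9.22 in AMAP. APAP and control lay within 0.09 of each other at every time, and the wider differences were in AMAP, 1.39-fold higher at 2 h and 1.69-fold lower at 6 h. Iars, for isoleucine, had 9.60, 10.00 and 9.94 in control, 9.66, 8.85 and 9.27 in APAP, and 9.64, 9.58 and 9.29 in AMAP. At 2 h the largest difference from control was 0.07, at 6 h APAP was 2.21-fold and AMAP 1.34-fold below control, and both compounds were lower at 24 h, by 1.59-fold and 1.57-fold. A second probe set of Iars gave -0.60 for APAP and -0.03 for AMAP at 6 h, and the average of both, -0.87 for APAP, was under 2-fold. Rars, for arginine, read 9.39, 9.81 and 9.48 in control, 9.85, 8.99 and 9.70 in APAP, and 9.61, 9.59 and 9.51 in AMAP. Its one wide difference was APAP at 6 h, 1.77-fold below control, and APAP was the highest array at 2 and 24 h.

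Eprs joins glutamate and proline charging in a single protein of the multisynthetase complex. Its levels were 8.45, 8.71 and 8.84 in control, 8.49, 8.23 and 8.24 in APAP, and 8.48, 8.44 and 9.29 in AMAP. All 3 arrays of 2 h were within 0.05 of each other, and at 24 h APAP was 2.07-fold below AMAP with control between them. The 2 further probe sets put APAP at -0.49 and -0.35 from AMAP at 24 h, with both compounds below control, and the average of the probe sets was under 2-fold. For APAP against control at 6 h they gave -1.85 and -0.45. The remaining synthetases, Gars, Kars, Lars, Nars, Sars, Tars, Vars, Wars and Yars, were less than 2-fold apart in every same-time comparison. Kars, for lysine, had the smallest range of the measured members, and Gars, for glycine, followed with 0.41. Sars and Yars were 1.78-fold and 1.89-fold higher in APAP than AMAP at 6 h and 1.88-fold and 1.57-fold lower at 24 h.

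Hars, which charges histidine, had the widest range of the module, 2.53, but only by its first probe set. That probe set read 9.02, 8.53 and 9.44 in control, 9.68, 7.15 and 7.99 in APAP, and 9.50, 9.65 and 8.11 in AMAP. APAP at 2 h was the highest array and APAP at 6 h the lowest, and at 6 h the compounds were 5.64-fold apart. The other Hars probe set stayed between 7.78 and 8.16 on all arrays. It differed from control by 0.07 in AMAP and -0.04 in APAP at 6 h and by 0.01 and -0.03 at 24 h, where the first one gave 1.12, -1.38, -1.34 and -1.46. Counts of 2-fold members that include Hars therefore rest on 1 of its 2 probe sets.

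**Figure D3:**
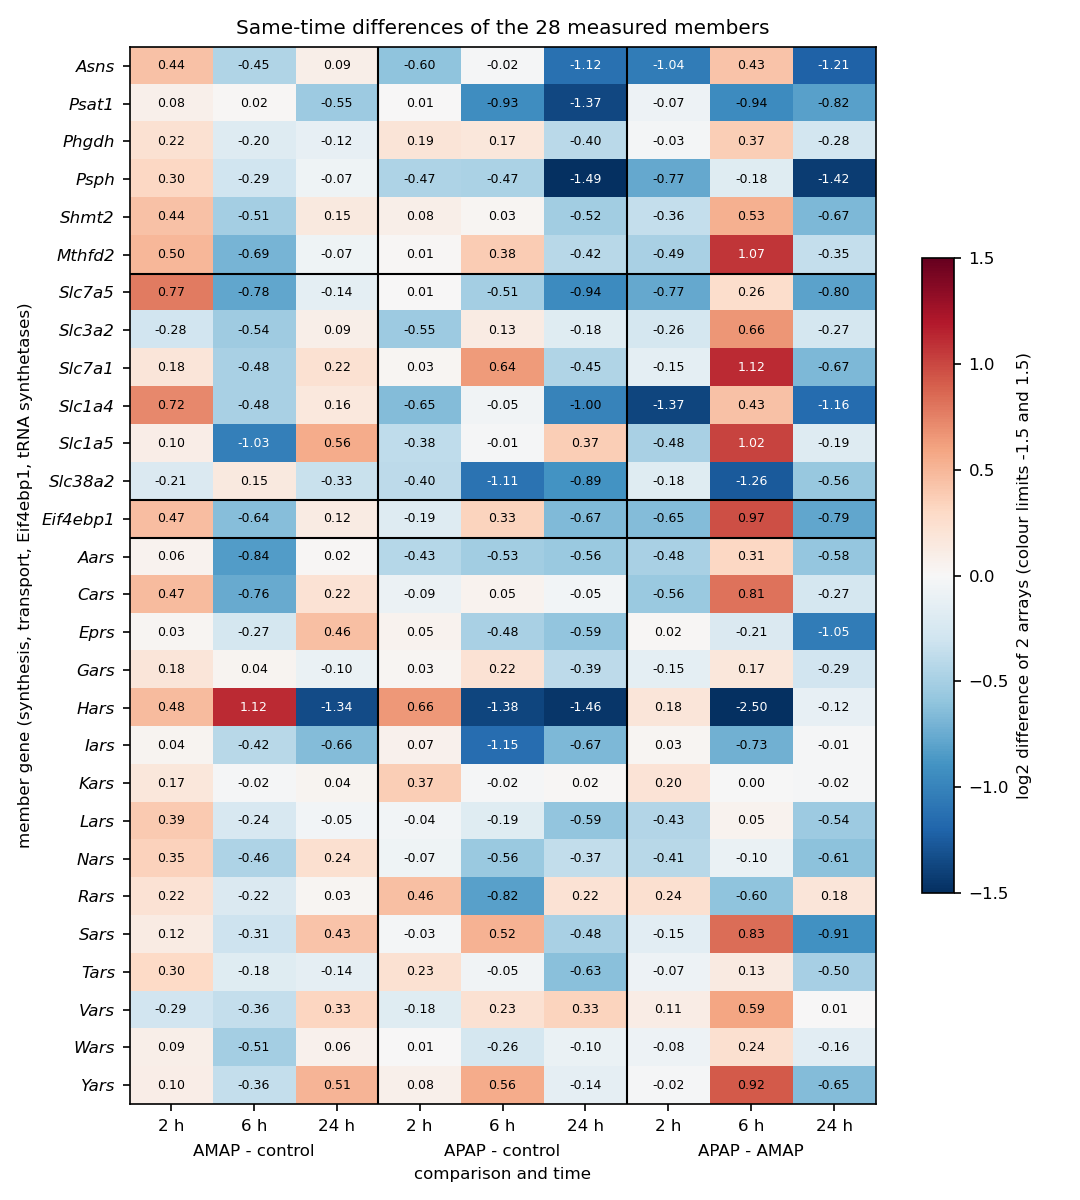
Log2 difference of 2 arrays for each of the 28 measured members (rows, by role) in the 9 same-time comparisons (columns), with the value printed in each cell and colours limited to -1.5 and 1.5. AMAP against control is mostly red at 2 h and blue at 6 h, and APAP against control is mostly blue at 24 h. Slc7a1 is drawn although it was below the expression level.

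Probe sets of the same gene read the same RNA and are no replicates, but they show how far a difference depends on the probes. A further expressed probe set existed for 14 members. At 2 h its difference had the sign of the first probe set for 12 members in AMAP and 11 in APAP, with median gaps of 0.10 and 0.08. At 6 h the signs matched for 11 and 10 members, but the median gaps were 0.38 and 0.59, the widest being Eprs in APAP with 1.37. At 24 h they matched for 8 members in AMAP and 12 in APAP, with gaps of 0.39 and 0.30. For APAP against AMAP at 24 h all 14 had the same sign in both, with a median gap of 0.21. The median AMAP difference from control over the 14 was 0.285 by the first and 0.234 by the further probe sets at 2 h. At 6 h the first gave -0.457 and the further ones -0.069. The gaps at 6 and 24 h involve the 3 arrays that stood apart, except for AMAP at 6 h, and the part of those arrays in them was not tested.

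**Figure D4:**
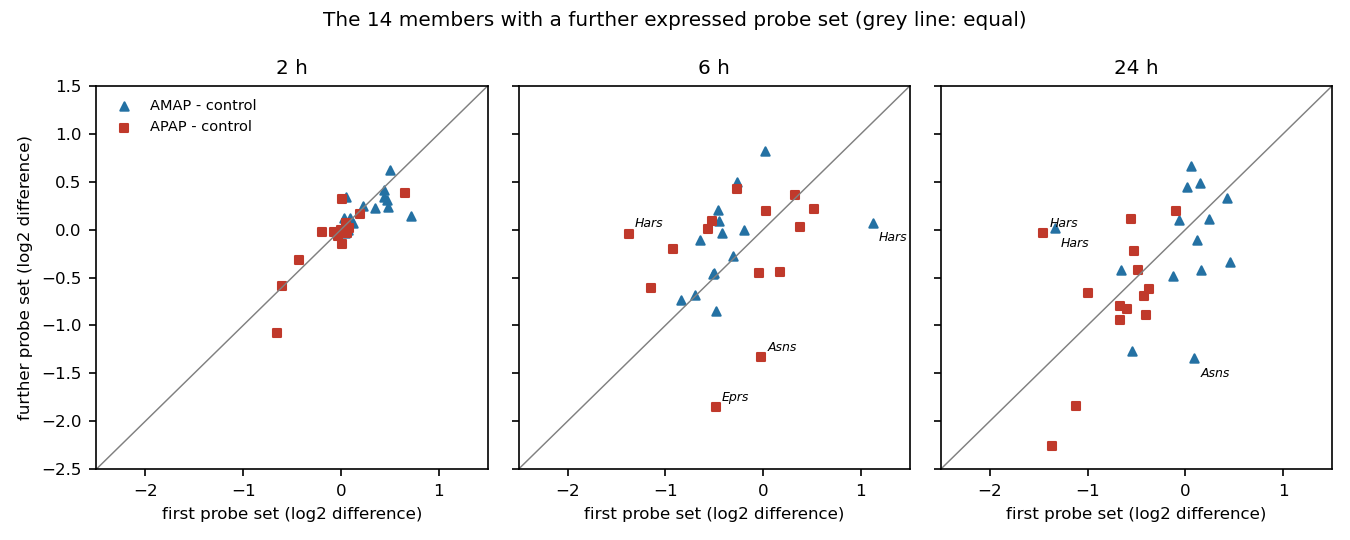
Log2 difference from control by the first probe set (horizontal axis) and by a further expressed probe set (vertical axis) for 14 members at 2, 6 and 24 h, with AMAP in blue triangles and APAP in red squares. The grey line marks equality, and members more than 1 log2 unit apart are named. Points keep close to the line at 2 h and scatter at 6 and 24 h, with Hars, Eprs and Asns farthest from it.

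Control cells themselves were not constant. From 2 to 24 h in control medium, 26 of 27 members were higher, with a median of 0.50 where all expressed genes had -0.02. Slc7a5 was 2-fold higher, 1 of 27, by 2.04-fold, beside 0.769% of all genes higher and 0.104% lower. From 2 to 6 h 24 of 27 were higher, with a median of 0.26 beside 0.07 for all expressed genes, and 21 of 27 were higher after centring. Between 2 and 6 h the further probe set had the sign of the first for 8 of 14 members, with medians of 0.058 and 0.305. Between 2 and 24 h all 14 signs matched, with medians of 0.453 by the further and 0.526 by the first. Set against the control array of 2 h, AMAP at 24 h was higher for 24 of 27, with a median of 0.52, and APAP at 24 h for 14 of 27, with a median of 0.02. At 6 h AMAP was higher than that array for 9 of 27, with a median of -0.11, and APAP for 17 of 27, with a median of 0.17. These comparisons share the control array of 2 h. The single APAP values at 24 h ran from -1.03 to 0.65 around that array.

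Differences shared by the 3 times were sought with limma, with terms for treatment and for time, on all 9 arrays and 6700 genes, so that treatment by time is the error. With Benjamini-Hochberg adjustment, limma called no gene and hence no member, that is 0% of genes for AMAP against control, 0% for APAP against control and 0% for APAP against AMAP. At an unadjusted limma p under 0.05 there were 30, 514 and 285 genes. Among the 27 members these were 0, 5 and 3. For APAP against control they were Slc38a2 at -0.80 (95% interval -1.30 to -0.30), Psph at -0.81 (-1.39 to -0.23), Psat1 at -0.76 (-1.34 to -0.18), Iars at -0.58 and Aars at -0.50. With probe sets averaged, Aars was not among these members, and Asns and Slc1a4 were. Slc38a2 had the lowest unadjusted p, 0.0055, and an adjusted p of 0.63, and was lower at 3 of 3 times. Of the 27 members, 7 had the same sign at 3 of 3 times for this contrast, Psph and Aars among them. These signs come from the same values as the fit, and the share over all genes was not counted. Without 24 h only Slc38a2 had an unadjusted limma p under 0.05 for this contrast, beside 374 of the 6700 genes. Leaving out the 3 arrays that stood apart keeps 1 APAP array, that of 2 h, so that fit cannot show a difference shared by the times.

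The 27 comparisons of APAP with its isomer gave Psph at -0.79 (-1.37 to -0.21), Slc38a2 at -0.67 (-1.17 to -0.17) and Psat1 at -0.61 (-1.19 to -0.03), each with an adjusted limma p of 0.87 and lower at 3 of 3 times. Asns was at -0.61 (-1.29 to 0.07) and Slc1a4 at -0.70 (-1.42 to 0.03), each lower at 2 of 3 times. In this contrast 5 of the 27 members had the same sign at 3 of 3 times. AMAP against control gave Asns at 0.03 with an interval from -0.65 to 0.71, and Eif4ebp1 at -0.02 with -0.74 to 0.70. Those intervals still hold changes of more than 1.5-fold either way, and a p above the threshold does not show equal levels. Opposite signs at 2 and 6 h, as Mthfd2 had in AMAP, average out in this fit. Tested on data with known answers, the fit for APAP against control called 3% of genes shifted by 0.5 log2 units, 28.4% of those shifted by 1 and 90.9% of those shifted by 2.

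Genes upstream and around the module were read from lists of the same pathway. Of 18 regulators, 16 were expressed. Atf4 itself was at 0.45 in AMAP and -0.30 in APAP against control at 2 h, at -0.66 and 0.51 at 6 h, and at 0.42 and -0.32 at 24 h. Ddit3 (CHOP), a stress factor downstream of ATF4, was 2-fold higher in AMAP and 2-fold lower in APAP at 2 h, by 1.71 and -1.09. Ppp1r15a (GADD34), which restores translation, and the stress protein Nupr1 were also 2-fold higher in AMAP at 2 h, by 1.49 and 1.15. Chac1, which degrades glutathione, was 2-fold lower in APAP at 2 h, by -1.03. At 2 h 1.37% of all genes were 2-fold higher and 0.443% lower in AMAP, and 0.931% higher and 1.14% lower in APAP. At 24 h Trib3, Chac1 and Nupr1 were 2-fold lower in APAP than in control, by -1.89, -1.41 and -2.43, while Ppp1r15a was higher by 1.57. By that rule 3.8% of all genes were lower and 3.4% higher. Ppp1r15a was also 2-fold higher in AMAP at 24 h, by 1.10. In control, Trib3, Chac1 and Nupr1 were higher at 24 h than at 2 h, by 1.51, 1.53 and 1.99. Further probe sets of the regulators were not compared. Over the 16 regulators the 24 h median for APAP was 0.00, with 8 higher and 8 lower.

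Of 25 further genes of amino acid synthesis and one-carbon metabolism, 15 were expressed. In APAP against control at 24 h 10 were higher and 5 lower. The 2-fold lower ones were Aldh18a1, which starts proline synthesis, Cth, which makes cysteine from cystathionine, and Gpt2, a mitochondrial alanine transaminase, at -1.79, -1.92 and -1.03. The list's median was 0.15 beside 0.12 for all expressed genes. By the 2-fold rule 3.8% of all genes were lower and 3.4% higher in that comparison. Of 19 further carriers 7 were expressed. Slc6a9, a glycine carrier, was at -1.40 and the glutamine carrier Slc38a3 at 1.06 in APAP at 24 h, the 2 expressed members of that list that were 2-fold apart there. The cystine carrier Slc7a11 did not reach the expression level. The 6 further genes of cytosolic charging, Farsa, Farsb, Qars, Aimp1, Aimp2 and Eef1e1, were all expressed. In APAP at 2 h all 6 were higher than control, with a median of 0.27, and at 24 h 3 were higher and 3 lower, with a median of -0.01. Of 17 mitochondrial synthetases 7 were expressed, and in APAP at 24 h 6 of them were higher than control, with a median of 0.22, while the median of the cytosolic members was -0.39. No test of that difference was made, since each group is 1 array.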

How the data were processed

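The deposited table holds log2 expression values per probe set from the authors. Per the submitters' processing notes the method was RMA and the software Affymetrix Expression Console. Its version is not given in the sources, nor whether the 9 arrays went through RMA together. RMA equalizes probe distributions, so a change of total RNA would not show. Array intensities were not used, and the number of arrays limits the precision. Of 22690 probe sets, 64 were controls, 20380 had 1 symbol in GEO's platform annotation, 691 several and 1555 none. A gene was read from its 1-symbol probe set with the highest mean. Groups were taken from the sample titles. Same-time differences were counted at 2-fold. The fit used limma 3.58.1 in R 4.3.3, with 4 residual degrees of freedom and adjusted p under 0.05, and was tested on simulated arrays. Tables were made with pandas 2.3.3 in Python 3.11.15. The members, the lists and the rules were chosen with earlier results of these data known. Given in full were the 5 widest compound differences from control in each of the synthetase and other groups, Asns, Psat1, Slc7a5, Eif4ebp1, and any expressed member 2-fold apart, 15 in all. One member's promoter is not reported here. Alternatives were a 1.5-fold threshold, no filter, averaged probe sets, cyclic loess, median centring, other variance priors, no time block, fewer arrays and leaving out each time.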

Additional observations from a re-analysis of the deposited data

Results flagged for a closer look

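The AMAP difference from control had opposite signs at 2 and 6 h, with member medians of 0.217 and -0.363, and 24 of 27 members higher at 2 h and 23 of 27 lower at 6 h. The difference between the times was not tested, since each is 1 pair of arrays, and neither pair includes an array that stood apart. The control array also differed between these times, with a member median of 0.262 from 2 to 6 h. Set against the control array of 2 h, AMAP at 6 h had a median of -0.107, with 9 members higher and 18 lower. The size of the 6 h difference from control depended on the probes. For the 14 members with a further expressed probe set, the first gave a median of -0.457 and the further one -0.069. At 2 h those medians were 0.285 and 0.234. APAP against AMAP likewise had member medians of -0.183 at 2 h, 0.264 at 6 h and -0.543 at 24 h, not tested between times. Hars in AMAP was at 1.121 against control at 6 h and -1.336 at 24 h by its first probe set, and the other Hars probe set gave 0.07 and 0.01. That difference between times was not tested either.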

How the results depend on the processing

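At a 1.5-fold threshold the members apart numbered 2, 3 and 5 at 2 h for AMAP against control, APAP against control and APAP against AMAP, then 7, 5 and 13 at 6 h and 2, 12 and 11 at 24 h. Of all 6700 expressed genes, with no filter on low values, 231 were 1.5-fold higher and 177 lower, 252 and 404, and 171 and 334 at 2 h. In the same order of comparisons, the genes higher and lower were 273 and 300, 520 and 1077, and 1115 and 1151 at 6 h. At 24 h these counts were 528 and 532, 891 and 648, and 527 and 446. With a gene's probe sets averaged, the 2-fold counts were 1 for AMAP and 1 for APAP against control at 6 h, 0 and 3 at 24 h, and 1 for APAP against AMAP at 24 h. Over all genes that average left 60 higher and 11 lower for AMAP and 87 and 237 for APAP at 6 h. At 24 h it left 33 and 126 for AMAP, 190 and 216 for APAP, and 88 and 74 for APAP against AMAP. Of 21 single 2-fold differences, 10 came under 2-fold with that average. Under cyclic loess and under median centring the AMAP count at 6 h was 1, as Slc1a5 came under 2-fold. Medians near 0 reversed: APAP against control was -0.009 at 2 h and 0.046 at 6 h after cyclic loess and 0.036 at 6 h after centring, and AMAP against control was -0.01 at 24 h after centring. The cause of these moves beyond the construction of each setting was not tested. Other medians kept their sign under all 3 settings. Scaling also moved the split of all 2-fold genes. AMAP at 6 h went from 73 higher and 17 lower to 102 and 4 with cyclic loess and 92 and 7 with centring, AMAP at 24 h from 51 and 183 to 22 and 228 with cyclic loess, APAP at 24 h from 239 and 267 to 126 and 323 or 154 and 323, and APAP at 6 h to 169 and 282 with centring. Limma called 0 members in all 3 contrasts under every setting run. Without 24 h, only Slc38a2 had an unadjusted limma p under 0.05 in either APAP contrast, beside 374 genes against control and 404 against AMAP. The setting without the 3 arrays that stood apart keeps 1 APAP array, that of 2 h, and cannot show a difference shared by the times. The main fit matched the treatments by time through its term for time. No pairing of replicates was possible because the labels give no replicate numbers and each group is 1 array.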
